A study of Mus musculus with 8 samples.

Results

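The miR-297, miR-466, miR-467 and miR-669 families are 4 groups of small RNAs with related, repeat-rich sequences. Members were chosen by name: every mouse miRNA probed on the array whose name begins with miR-297, miR-466, miR-467 or miR-669 followed by a letter or a hyphen. This gave 61 of the 1881 mouse miRNAs, of which 3 belong to miR-297, 23 to miR-466, 12 to miR-467 and 23 to miR-669. Most of their genes stand in a dense cluster inside Sfmbt2, a Polycomb gene of mouse chromosome 2 that is imprinted in the extraembryonic tissues. The study asked which miRNAs are lost with Dicer in footpad skin, the skin that forms mouse sweat glands. Footpad skin of wild-type (WT) embryos and of embryos labelled Dicer cKO (conditional knockout) was collected at embryonic stages E16.5 and E17.5 (days of development), all on a C57BL6 strain background. Each of the 4 groups had 2 single-colour arrays (8 in all), and each array carried RNA pooled from 3 to 5 embryos, so p-values measure the spread between pools and not between embryos. The labels name neither the cells that lost Dicer nor the driver of the deletion, and Dicer itself is not measured by the array.

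A miRNA is cut from a hairpin precursor, first in the nucleus and then in the cytoplasm by Dicer, and pairs with target mRNAs mainly through its seed, the second to eighth bases. A hairpin can release a miRNA from each of its arms, named 5p and 3p. The Sfmbt2 cluster is found in rodents, arose by repeated duplication of short hairpin units, and is known for its abundant miRNAs in placenta and embryonic stem cells.

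The sequences below show the feature that most members with a measurable signal share, a run of alternating bases. Of the 61 members, 7 matched an entry of the RefSeq mature miRNA table (GRCm38.p6), with 7 different seeds, and 4 of the 7 gave enough signal to be tested. These 4 are given 5′ to 3′ with the seed in capitals, and lie at chr3:28419988-28420007 on the plus strand (miR-466q), chr3:115979905-115979924 on the plus strand (miR-669n), chr11:69635419-69635439 on the minus strand (miR-467f) and chr13:17747552-17747573 on the plus strand (miR-466i-3p). Under each is the array's probe, the DNA letters that pair with the miRNA, from the deposited scanner files, with the longest alternating G and T or A and C stretch of at least 8 letters in capitals.
miR-466q mature: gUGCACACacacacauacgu
miR-466q probe: acgtaTGTGTGTGTGTG
miR-467f mature: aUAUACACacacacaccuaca
miR-467f probe: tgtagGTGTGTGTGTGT
miR-466i-3p mature: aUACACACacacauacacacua
miR-466i-3p probe: tagtgtgtaTGTGTGTGTG
miR-669n mature: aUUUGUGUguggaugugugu
miR-669n probe: acacacatcCACACACAa

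These probes pair with the 3′ part of the miRNA and leave out its first bases: the miR-466q probe reads bases 4 to 20, the miR-467f probe bases 5 to 21, the miR-466i-3p probe bases 4 to 22 and the miR-669n probe bases 3 to 20. For these 4 members, between 4 and 6 of the 7 seed bases are read. The probes of the other members that the results turn on show the same runs, in the same notation.
miR-466i-5p probe: CACACACACACACACA
miR-466h-3p probe: GTGTGTGTGTGcgt
miR-466f-3p probe: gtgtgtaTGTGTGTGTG
miR-466g probe: TGTGTGTGcatgtgtc
miR-669p-3p probe: atacGTGTGTGTGTGTatg
miR-669f-3p probe: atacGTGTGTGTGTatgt
A G and T stretch of at least 8 letters, in the sense of the probe as printed, was present in 50 of the 162 member probes (30.9%) and in 0 of the 4253 probes for other mouse miRNAs. An A and C stretch of that length was present in 11 member probes (6.79%) and in 14 other probes (0.329%). The motifs searched were GTGTGTGT, TGTGTGTG, CACACACA and ACACACAC, and a longer stretch contains them in overlapping copies. The probe of miR-466i-5p consists of the repeat alone.

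A minority of the families was detected in footpad skin. The scanner's own call (gIsGeneDetected) marked 24 of the 61 members on at least 1 array and 8 on all 8 arrays, and 37 members on none. None of the 3 rows named miR-297 was called on any array. The row of miR-669b-5p, called on 6 arrays, also stands for miR-297a-5p and miR-466f, which the array does not tell apart. A stricter call, requiring over 50% of the spots of a probe to be well above background, marked 17 members on at least 1 array and 4 on all 8: miR-466i-5p, miR-467f, miR-669f-3p and miR-669n. By this call 15 members were present on both arrays of 1 or more groups and were tested (24.6% of members, beside 370 of 1820 other mouse miRNAs, 20.3%). They comprised 7 miR-466, 4 miR-467 and 4 miR-669 members. The tested members were 8 of 26 miRNAs named 3p, 3 of 25 named 5p and 4 of 10 with no arm in the name.

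The number of members with a scanner call was 17 and 9 on the E16.5 WT arrays (replicates 1 and 2), 21 and 10 on the E16.5 cKO arrays, 21 and 17 on the E17.5 WT arrays, and 24 and 19 on the E17.5 cKO arrays. Both E16.5 replicate 2 arrays stood lowest, and cKO and WT overlapped. The mean was 18.5 ± 6.03 (SD, n = 4) in cKO and 16 ± 5.03 (SD, n = 4) in WT, a difference within the spread between arrays (two-sided exact permutation p = 0.543, and p = 0.5 with permutation within stage, where the smallest possible p is 0.0556). By the stricter call the 4 cKO arrays had 6, 11, 12 and 17 members and the 4 WT arrays 4, 14, 15 and 16 (two-sided exact permutation p = 0.857). The same 2 arrays were lowest over all mouse miRNAs, with 281 (cKO) and 279 (WT) detected by the stricter call against 352 to 384 on the other 6.

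**Figure D1:**
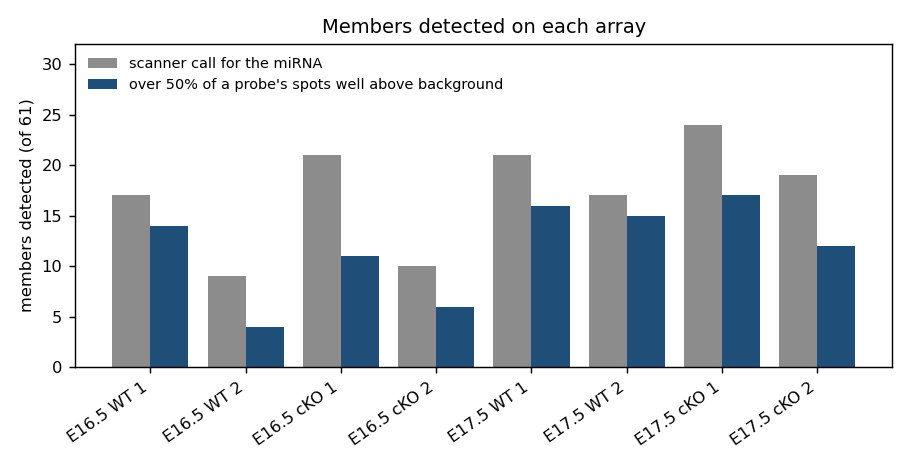
Bars give the number of the 61 members detected on each of the 8 arrays, by the scanner's call for the miRNA (grey) and by the requirement that over 50% of a probe's spots be well above background (blue). The 2 E16.5 replicate 2 arrays have the fewest, 9 and 10 by the scanner's call.

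Signals are given first as background-subtracted fluorescence in arbitrary linear units before any scaling between arrays, and they can be read across arrays only for the same miRNA. Whole arrays differed in brightness: the 75th percentile used for scaling was 284.3 to 397.6 in E16.5 WT, 287.6 and 288 in E16.5 cKO, 502.6 and 521.4 in E17.5 WT, and 375.1 and 407.8 in E17.5 cKO, so unscaled signals run with it. Negative control spots averaged 2.56 to 4.79 on these arrays. In the order E16.5 WT, E16.5 cKO, E17.5 WT, E17.5 cKO, with replicates 1 and 2 in each, miR-466i-5p gave 735 and 554, 857.1 and 641.5, 980.6 and 839.8, and 750.6 and 825.1. Its signal was far above the control spots on every array, and the ranges of the 2 genotypes overlapped.

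The 3p miRNA of the same hairpin, miR-466i-3p, gave in the same order 19.5 and 14.4, 17.4 and 23.2, 40.2 and 38.6, and 34.6 and 34.95. The signal of miR-466h-3p was 29.1 and 22.8, 27.9 and 27.7, 61.9 and 67.5, and 46.1 and 49.7. The signal of miR-466q was 24.5 and 20.1, 23.5 and 22.7, 51.7 and 55.3, and 38.8 and 39.0. In these 3 members every E17.5 array exceeded every E16.5 array before scaling, and at E17.5 both WT arrays exceeded both cKO arrays, the order of array brightness at that stage. After scaling, miR-466i-3p at E17.5 was instead higher in cKO (−3.56 and −3.42, log2) than in WT (−3.65 and −3.75). The signal of miR-466f-3p was 25.3 and 16.54, 21.5 and 22.7, 45.9 and 47.7, and 39.1 and 41.4. The signal of miR-466g was 17.6 and 7.26, 9.15 and 20.7, 34.1 and 26.3, and 36.3 and 35.2. Both followed the same order by stage, and miR-466g was not well above background on 3 of the 4 E16.5 arrays.

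In the miR-467 family, miR-467f gave 33.1 and 28.3, 31.1 and 34.2, 71.7 and 76.6, and 49.2 and 51.3. It was detected on all 8 arrays, and its E17.5 WT arrays stood above all others. The signal of miR-467a-3p was 16.9 and 13, 13.7 and 14.1, 23.7 and 21.3, and 22.3 and 19.1. The signal of miR-467e-5p was 17.9 and 14.1, 13.9 and 14.3, 23.0 and 21.8, and 20.3 and 18.7. Both of these lay at the floor described next on at least 7 of 8 arrays, so no size of change can be read for them. The range over arrays of miR-467b-5p was 12.1 to 23.4, and it was at the floor on all 8.

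In the miR-669 family, miR-669f-3p gave 68.6 and 45.4, 48.1 and 51.5, 88.9 and 86.1, and 82.2 and 72.7. Its row also stands for miR-669a-3p and miR-669o-3p, which the array does not tell apart. The signal of miR-669n was 44.9 and 29.4, 44.9 and 40.8, 50.4 and 43.2, and 47.0 and 47.6. Its row also stands for miR-669c-5p. The signal of miR-669p-3p was 26.4 and 20.3, 25.1 and 27.4, 46.9 and 50.01, and 34.3 and 36.02. Of these 3, miR-669f-3p and miR-669p-3p were higher on every E17.5 array than on any E16.5 array, whereas the stages overlapped in miR-669n. After scaling, miR-669f-3p changed with stage by 0.04 in WT, with overlapping arrays, and miR-669p-3p by −0.02 in cKO (log2). The last of the family to be tested, miR-669c-3p, ranged from 9.31 to 27.9 and was at the floor on 7 arrays, and miR-466b-3p, whose row also stands for miR-466a-3p, ranged from 10.6 to 24.2 and was at the floor on all 8.

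Of the 46 members that were not tested, 9 had a scanner call on at least 1 array. The 6 of these with the highest mean signal over the 8 arrays were miR-669l-5p (16.2), miR-669b-5p (12.7), miR-466m-5p (10.9), miR-467c-5p (10.2), miR-466h-5p (10.2) and miR-467d-3p (9.45). Their groups were not compared.

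For the comparisons, each array was scaled to the 75th percentile of its signal over the 474 probes seen on every array, values below a floor of −4.24 (log2) were raised to it, and log2 was taken. A change is thus relative to the well-detected miRNAs of the same array. A change was called at a limma adjusted p under 0.05 over the 385 miRNAs tested. Over both stages all 10 skin epithelial miRNAs examined fell in cKO, with a median change of −2.56. They were the miR-200 group, miR-203, miR-205 and the miR-183 group. Of the others examined, 7 of 8 dermal mesenchyme, 5 of 5 skeletal muscle, 3 of 5 blood and 2 of 3 nerve miRNAs rose. Their medians were 0.21 to 0.32. Over all 385 tested miRNAs 45.7% rose and 14.5% fell, with a median of 0.17, and the blood and nerve medians (both 0.21) lay near it. With arrays scaled on control probes instead, 4 of all tested miRNAs rose and 302 fell. In whole skin, fewer cells of a type and less of a miRNA per cell cannot be told apart, and the part of these shifts in the members' changes was not tested.

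None of the 15 tested members fell in cKO over both stages, and 4 rose by 1.19 to 1.35-fold: miR-669n, miR-466g, miR-466i-3p and miR-466f-3p. Among all 385 tested miRNAs 60.3% were called (45.7% rose and 14.5% fell), so 4 of 15 is not above the background of rises. The median change of the members was 0.14, and that of all tested miRNAs was 0.17. Among the 15, miR-466b-3p, miR-467b-5p and miR-467e-5p were at the floor on all 8 arrays, and miR-467a-3p and miR-669c-3p on 7. These could hardly show a rise or a fall, so the members' counts and medians with cKO, here and at each stage, include values fixed near 0. How many of the other tested miRNAs lay at the floor was not counted. By comparison, in the other large imprinted miRNA cluster, on chromosome 12, 41 of 48 tested miRNAs rose and 0 fell, with a median of 0.31.

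The member with the clearest rise was miR-669n. Its log2 scaled signal was −3.15 and −3.27 in E16.5 WT, −2.68 and −2.82 in E16.5 cKO, −3.32 and −3.59 in E17.5 WT, and −3.12 and −2.98 in E17.5 cKO. Every cKO array exceeded every WT array, which held for no other tested member. How many of all tested miRNAs did the same was not counted. Its rise was 0.43 ± 0.08 (SE) over both stages, or 1.35-fold (limma adjusted p = 0.00785), and it was called with any 1 of the 8 arrays left out (changes of 0.37 to 0.50). The stage values were 0.46 ± 0.12 at E16.5 (adjusted p = 0.0264) and 0.41 ± 0.12 at E17.5 (adjusted p = 0.0372). These stage calls were less steady: with single arrays left out in turn, the E16.5 call held in 4 of 8 cases (highest limma adjusted p = 0.124) and the E17.5 call in 1 of 8 (changes of 0.27 to 0.54, highest adjusted p = 0.176). A second probe of this miRNA, 1 letter shorter, gave 0.34 and 0.36.

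The rises of the other 3 over both stages were smaller or less even. For miR-466f-3p the rise was 0.25 ± 0.06 (limma adjusted p = 0.0147), and its WT and cKO arrays overlapped across the stages. For miR-466i-3p the rise was 0.31 ± 0.10 (adjusted p = 0.0459) with both E16.5 WT arrays at the floor, and for miR-466g it was 0.42 ± 0.13 (adjusted p = 0.0389) with 4 arrays at the floor. With single arrays left out in turn, each of these 3 lost its call in some cases, and other members were called in some. Their rises then ranged from 0.20 to 0.30 (miR-466f-3p), 0.20 to 0.41 (miR-466i-3p) and 0.31 to 0.53 (miR-466g). The calls, that of miR-669n included, did not hold without both E16.5 replicate 2 arrays. The 5p arm of the miR-466i hairpin changed by 0.31 ± 0.13 and was not called (adjusted p = 0.0868).

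At E16.5, 5 members rose in cKO (miR-669p-3p, miR-669n, miR-466f-3p, miR-466h-3p and miR-466q) and none fell, beside 50.9% of all tested miRNAs that were called (35.8% rose and 15.1% fell). The members' median change was 0.28, and that of all tested miRNAs was 0.19. The log2 scaled signal of miR-669p-3p was −3.91 and −3.81 in WT and −3.52 and −3.40 in cKO, a rise of 0.40 ± 0.08 (limma adjusted p = 0.0148). That of miR-466f-3p was −3.97 and −4.10 in WT and −3.74 and −3.66 in cKO, a rise of 0.33 ± 0.08 (adjusted p = 0.0249). That of miR-466h-3p was −3.77 and −3.64 in WT and −3.37 and −3.38 in cKO, a rise of 0.33 ± 0.09 (adjusted p = 0.0330) that became 2.09 ± 1.09 and was not called with outlier spots kept (adjusted p = 0.167). That of miR-466q was −4.02 and −3.82 in WT and −3.61 and −3.66 in cKO, a rise of 0.28 ± 0.08 (adjusted p = 0.0386). In each of these 4 members both cKO arrays exceeded both WT arrays at this stage. The same was true of miR-466i-5p (0.44 ± 0.18), miR-466i-3p (0.40 ± 0.14) and miR-467f (0.32 ± 0.11), which were not called (adjusted p = 0.0908, 0.0614 and 0.0612). With 2 arrays per group such separation can arise readily without a difference, and its share among all tested miRNAs was not counted. None of the 5 was called without E16.5 cKO replicate 2, where miR-466i-5p was called instead. Of the 5, only miR-466f-3p was called without E16.5 WT replicate 1, only miR-669p-3p without E16.5 cKO replicate 1 (miR-466i-3p was called as well), only miR-466q without both E16.5 replicate 2 arrays, and only miR-669n and miR-669p-3p without either E17.5 WT array.

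At E17.5 only miR-669n (above) and miR-466g rose, beside 46% of all tested miRNAs that were called (35.8% rose and 10.1% fell). The log2 scaled signal of miR-466g was −3.88 and −4.24 in WT, the second at the floor, and −3.49 and −3.41 in cKO, a rise of 0.61 ± 0.18 (limma adjusted p = 0.0434). Several of the members called at E16.5 had E17.5 values on the other side of 0 that did not pass the test: miR-466h-3p −0.05, miR-466q −0.07 and miR-669p-3p −0.07, with miR-467f at −0.17 ± 0.11 (adjusted p = 0.289). For miR-669f-3p both cKO arrays exceeded both WT arrays at this stage, with a change of 0.21 ± 0.07 that was not called (adjusted p = 0.0543). Without E17.5 WT replicate 2 or either E16.5 WT array 0 members were called, and without either E16.5 cKO array miR-466g alone was called. Without E17.5 cKO replicate 1 or replicate 2 neither miR-669n nor miR-466g was called, and another member was (miR-466f-3p and miR-467a-3p, respectively).

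**Figure D2:**
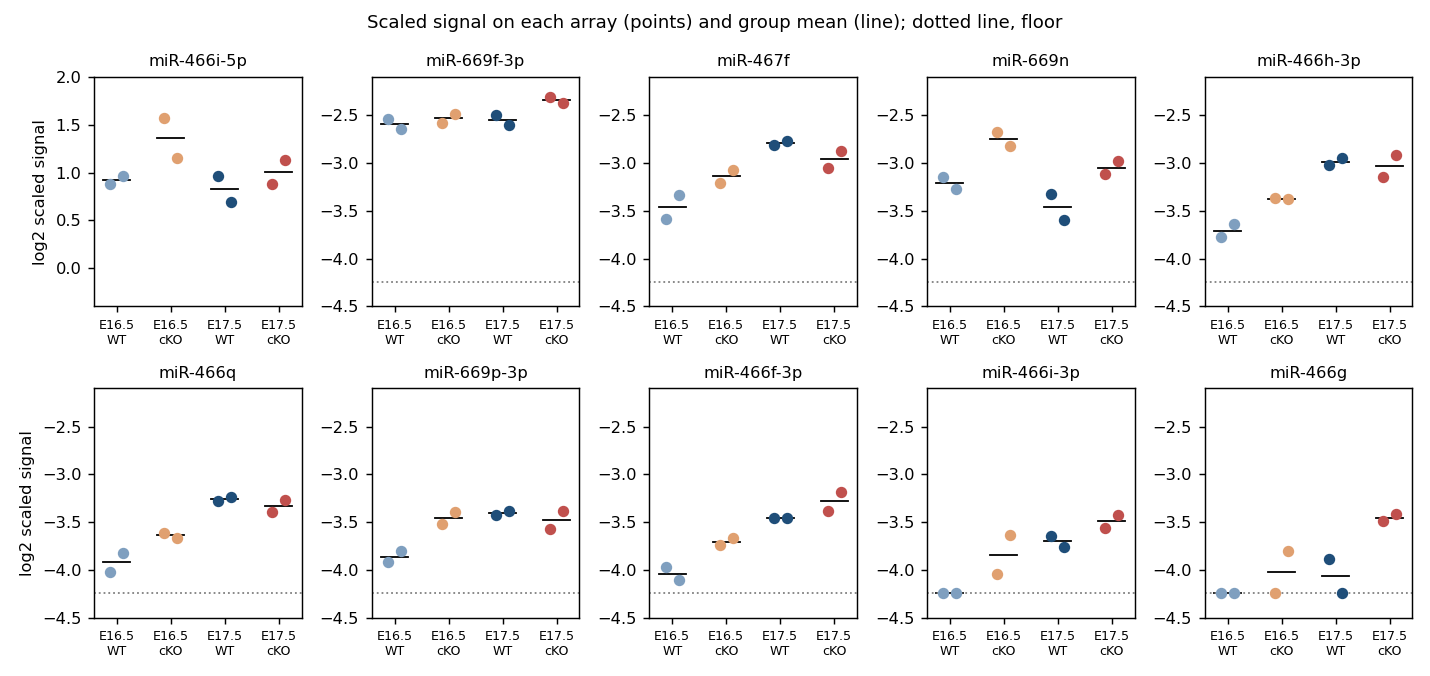
Points are the log2 scaled signals of single arrays, lines are the means of the 2 arrays of a group, and the dotted line is the floor at −4.24, for the 10 members at the floor on fewer than 5 arrays. In miR-669n every cKO point lies above every WT point, and in miR-466h-3p, miR-466q and miR-467f the E17.5 WT points lie above the E16.5 WT points.

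The difference of the cKO effect between the stages was tested directly and was called for 0 of the 15 members (limma). Of all tested miRNAs 1.56% were called (0.779% higher and 0.779% lower at E17.5). The share of all tested miRNAs with an unadjusted p under 0.05 was not counted, and the 1.56% does not stand for it. At that looser threshold there were 4 members. These were miR-669p-3p (−0.48 ± 0.12, E17.5 effect minus E16.5 effect, adjusted p = 0.101), miR-467f (−0.49 ± 0.16, adjusted p = 0.127), miR-466q (−0.36 ± 0.11, adjusted p = 0.127) and miR-466h-3p (−0.38 ± 0.13, adjusted p = 0.135). All 4 have a G and T stretch in the probe, as do 10 of the 15 tested members. With control-probe scaling 8 members were called for this difference, all lower at E17.5, beside 126 lower and 0 higher among all 385 tested miRNAs. With quantile normalization 1 was called, also lower, beside 13 lower and 11 higher among all.

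With stage, a group of members with G and T stretches rose in WT skin. From E16.5 to E17.5 miR-466h-3p, miR-467f, miR-466q, miR-466f-3p and miR-669p-3p rose by 1.37 to 1.65-fold, and no member fell. Among all 385 tested miRNAs 14.8% were called, 4.16% rising and 10.6% falling, so these 5 of 15 members make up 5 of the 16 miRNAs that rose. Of the 5, miR-466f-3p and miR-466q entered the test only through the E17.5 groups, where they were high. Their part in this share is thus not independent of the detection filter, and how many of the 16 did the same was not counted. The members' median change was 0.04 beside −0.04 over all tested miRNAs, since 5 of the 15 lay at or near the floor.

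The log2 scaled signal of miR-466h-3p was −3.77 and −3.64 in E16.5 WT and −3.02 and −2.95 in E17.5 WT, a rise of 0.72 ± 0.09 (limma adjusted p = 0.0129). That of miR-466q was −4.02 and −3.82 against −3.28 and −3.24, a rise of 0.66 ± 0.08 (adjusted p = 0.0129). That of miR-467f was −3.59 and −3.33 against −2.81 and −2.77, a rise of 0.67 ± 0.11 (adjusted p = 0.0249). In all 3 the E17.5 WT arrays stood above the E16.5 WT arrays with no overlap. The same held for miR-466f-3p, at −3.97 and −4.10 against −3.45 and −3.45 (0.59 ± 0.08, adjusted p = 0.0157), and for miR-669p-3p, at −3.91 and −3.81 against −3.42 and −3.38 (0.46 ± 0.08, adjusted p = 0.0286). How often the stages separated in this way among all tested miRNAs was not counted. For miR-466i-3p both E16.5 WT arrays were at the floor and the change of 0.54 ± 0.14 was not called (adjusted p = 0.0612). With all 8 arrays left out in turn, the changes of these 5 lay between 0.40 and 0.80. None of the 5 kept its call in all of these fits. Calls over all tested miRNAs fell as well when either E17.5 WT array was left out, so this loss was not particular to the members.

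In cKO skin miR-466f-3p, miR-466h-3p and miR-466q rose with stage and no member fell, beside 35.3% of all tested miRNAs that were called (15.1% rose and 20.3% fell). As in WT, miR-466f-3p and miR-466q entered the test only through the E17.5 groups, where they were high. The log2 scaled signal of miR-466f-3p went from −3.74 and −3.66 to −3.38 and −3.18, a rise of 0.42 ± 0.08 (limma adjusted p = 0.0226). That of miR-466h-3p went from −3.37 and −3.38 to −3.15 and −2.92, a rise of 0.34 ± 0.09 (adjusted p = 0.0388), and that of miR-466q from −3.61 and −3.66 to −3.40 and −3.27, a rise of 0.31 ± 0.08 (adjusted p = 0.0388). The stages did not overlap in these 3, and the share of all tested miRNAs that did the same was not counted. The change of miR-669p-3p in cKO was −0.02 ± 0.08 and that of miR-467f was 0.18 ± 0.11, neither called. The probe of miR-466g was not well above background on either E16.5 cKO array, and this miRNA too entered the test only through the E17.5 groups. With percentile scaling its E17.5 cKO signal was at least 1.45-fold higher, taking the dimmest well-detected signal of each E16.5 array as the bound. Its measured change of 0.57 ± 0.18 was not called (adjusted p = 0.0621). Over 23 alternative settings that change ranged from −0.03 to 0.80, so the bound holds for the percentile scaling only. None of these 3 was called without either E16.5 cKO array, without either E17.5 WT array, without E17.5 cKO replicate 2 or without both E16.5 replicate 2 arrays. Other members were called in their place without E16.5 cKO replicate 2 (miR-466g and miR-466i-3p), without E17.5 cKO replicate 2 (miR-467a-3p) and without both E16.5 replicate 2 arrays (miR-466i-3p).

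**Figure D3:**
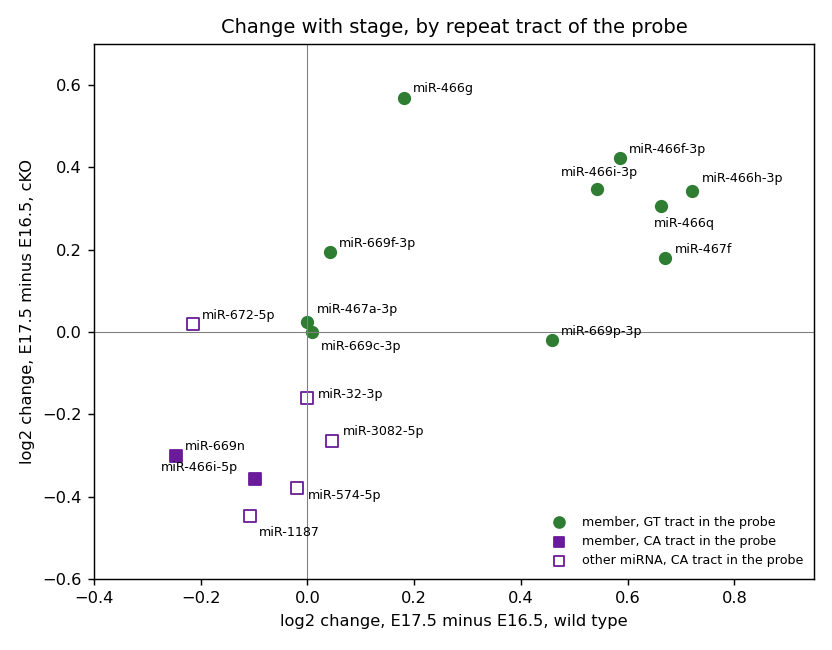
Each point is a tested miRNA with an alternating stretch of at least 8 letters in its probe, placed by its log2 change from E16.5 to E17.5 in WT (horizontal) and in cKO (vertical), with members filled and other miRNAs open. The members with a G and T stretch (green circles) lie at or right of 0 in WT, and the A and C members miR-466i-5p and miR-669n (filled purple squares) lie left of and below 0. Several of the G and T members entered the test only through E17.5 groups.

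Sorting the members by the repeat in the probe gives a description of who was measured and how each moved. Of 17 members with a G and T stretch in the probe 10 were tested (58.8%), of 6 with an A and C stretch 2 were tested, and of the 38 with neither 3 were tested (7.89%). The 8 members that the scanner called on all 8 arrays comprised 6 with a G and T stretch and 2 with an A and C stretch. The 10 tested G and T members had a median stage change of 0.50 in WT and 0.25 in cKO. Among them miR-466f-3p, miR-466g, miR-466i-3p, miR-466q, miR-467a-3p and miR-669c-3p entered the test only through E17.5 groups. A rise with stage is thus partly built into these medians by the detection filter. The 2 A and C members, miR-466i-5p and miR-669n, changed with stage by −0.10 and −0.25 in WT and by −0.36 and −0.30 in cKO, none of which was called. The 5 tested miRNAs outside the families with an A and C stretch (miR-1187, miR-3082-5p, miR-32-3p, miR-574-5p and miR-672-5p) had median stage changes of −0.02 in WT and −0.26 in cKO, and a median change with cKO over both stages of 0.32. The fit gives no test of one class of probe against another, and how far probes with the same repeat bind each other's miRNAs was not tested.

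Probes of different length for the same miRNA could be compared where both were above the floor, and they were closer in some contrasts than in others. The 2 probes of miR-466h-3p, of 14 and 13 letters, changed with stage in WT by 0.72 and 0.70, and the 4 probes of miR-669p-3p by 0.44 to 0.59. At E16.5, however, the 4 probes of miR-669p-3p changed with cKO by 0.14, 0.36, 0.49 and 0.40, and with stage in cKO by 0.24, 0.03, −0.05 and −0.02, in order of rising length. The shorter probe of miR-467f gave 0.59 beside 0.67 with stage in WT, and −0.03 beside −0.17 with cKO at E17.5. The 2 probes of miR-466i-5p changed at E16.5 by 0.44 and 0.48 with cKO. The shorter probes of miR-466f-3p, miR-466g, miR-466i-3p and miR-466q were at the floor on all 8 arrays and gave no second measure.

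Members encoded only inside Sfmbt2 made up 49 of the 61, and 9 of the 15 that were tested. The RefSeq gene table (GRCm38, used for names and neighbours only) lists 80 genes of the 4 families, of which 70 lie inside Sfmbt2 and 10 elsewhere. Of these 49 members, 3 had a scanner call on all 8 arrays. Of the 8 members whose own genes lie only elsewhere, 5 were tested and 4 had a scanner call on all arrays. Without miR-669n, whose row also stands for miR-669c-5p of the Sfmbt2 cluster, these counts were 7, 4 and 3. The 5 were miR-466i-5p and miR-466i-3p, whose hairpin gene lies within the span of Cdk13, a cyclin-dependent kinase gene, miR-466q (within Tnik, a kinase gene), miR-467f (within Fxr2, an RNA-binding protein gene) and miR-669n (within Slc30a7, a zinc transporter gene). For miR-466f-3p genes lie both inside and outside Sfmbt2.

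The array's own coordinates (mm9) place the matching sequence of the miR-669p-3p probe at chr2:10410799-10410817 and chr2:10418180-10418198, that of miR-669f-3p at chr2:10388918-10388934, that of miR-466i-3p at chr13:17839390-17839407 and that of the shared miR-669n and miR-669c-5p row at chr2:10430951-10430967. The last is on chromosome 2, whereas the RefSeq gene named Mir669n is on chromosome 3, so which of the 2 loci gave the signal called miR-669n cannot be told apart. Both stage risers from Sfmbt2 alone (miR-466h-3p and miR-669p-3p) and stage risers encoded elsewhere (miR-466q and miR-467f) were present.

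The direction of the genotype changes depended on the scale. When arrays were scaled on the 20 control probes, the median change of all tested miRNAs with cKO moved from 0.17 to −0.33 over both stages and from 0.13 to −0.55 at E17.5, and of the calls over both stages 4 were higher and 302 lower where the percentile scaling gave 176 and 56. On that scale 11 members fell and 0 rose over both stages, 14 fell at E17.5 and 1 fell at E16.5 (miR-669f-3p, −0.31 ± 0.07). The value of miR-669n became 0.09 at E16.5 and −0.37 at E17.5 (limma adjusted p = 0.0111). Measured against the median of all tested miRNAs on the same scale, miR-669n stood higher in cKO under all 7 scalings and background corrections tried, by 0.15 to 0.27 over both stages, and miR-466g by 0.07 to 0.34. By this measure miR-466f-3p ranged from −0.04 to 0.09. Several of the 7 settings scale each array by a single factor, which subtracting the median largely removes. They are thus not independent checks, and the members were picked as called with the percentile scaling.

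The stage rises in WT kept their place above the median of all tested miRNAs but not their calls. The 5 members that rose stood above it under all 7 settings, miR-466h-3p by 0.17 to 0.86, miR-467f by 0.19 to 0.81, miR-466q by 0.11 to 0.79, miR-466f-3p by 0.05 to 0.69 and miR-669p-3p by 0.03 to 0.59. Here too several settings differ by a factor that subtracting the median largely removes, so the 7 are not independent checks. The lowest values came from the normexp background correction, under which 3 of the 5 (miR-466f-3p, miR-466q and miR-669p-3p) had changes below 0, miR-466h-3p and miR-467f had changes of 0.014 and 0.035, and none of the 5 was called (limma adjusted p = 0.333 to 0.906). With no scaling 11 members rose in WT and with control-probe scaling 12, beside 180 and 200 of the 385 tested miRNAs. The median of all tested miRNAs moved from −0.04 to 0.47 and 0.29.

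**Figure D4:**
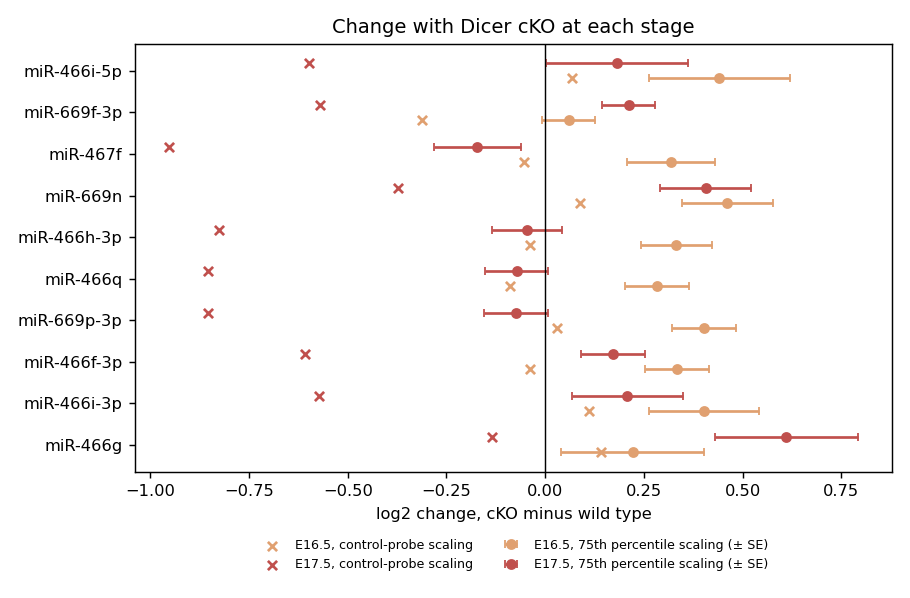
Circles give the log2 change of cKO minus WT at E16.5 (orange) and E17.5 (red) with 75th percentile scaling, with bars of 1 standard error, and crosses give the same change with control-probe scaling. All 10 crosses for E17.5 lie left of 0, whereas with percentile scaling the circles of miR-669n, miR-466g, miR-466f-3p, miR-466i-3p, miR-466i-5p and miR-669f-3p lie right of 0 at both stages.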

How the data were processed

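Feature Extraction 11.5.1.1 (Agilent) made the scanner files from the authors' scans, per the file headers. The deposited files hold a background-subtracted intensity per spot, in arbitrary linear units not scaled between arrays. The deposited value table equalled it within 0.02 in 100% of spots above 0 and served as an alternative only. No spot was saturated (0 spots). Spots marked as outliers (2.84% to 6.03% per array) were dropped.

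Probe values are means of spots. Scaling used the 75th percentile over 474 probes that all 8 arrays detected. The floor was the 5th percentile of detected probes, taken as a median across arrays, and it lowers the spread of weak miRNAs. The probe with the highest mean stood for each miRNA. With limma 3.58.1 (R 4.3.3), 4 group means were fitted to the log2 values of 385 miRNAs, with moderated variances that follow a trend, and 6 contrasts were taken, each with its own Benjamini-Hochberg adjustment. There were 4 residual and 1.08 prior degrees of freedom. Tested on simulated data for the contrast over both stages (385 miRNAs), the fit recovered 100% of 100 changes of 0.5 and 100% of 100 changes of 1 (log2). The simulated miRNAs all had the same spread and no floor, and contrasts within a stage or between stages were not simulated. The recovery thus does not give the power for the real members. Sequences were read with Python 3.11.15.

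Every tested member is named. Values per array are given for members called in any contrast and for the 12 with the highest mean, and of untested members with a detection call the 6 with the highest mean are named. The members and lists were chosen with earlier results of these data known. Deviations of same-numbered arrays correlated at −0.14 to 0.28 over the 6 pairs of groups, so the numbers were not taken to pair the samples. The arrays share 1 slide on which each group has its own column, so column and group cannot be told apart. Precision is limited by having 2 arrays per group. With an array left out, calls changed over all tested miRNAs as well as among the members.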

Additional observations from a re-analysis of the deposited data

How the results depend on the processing

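Counts below are of members called, with 15 tested and main counts of 4 over both stages, 5 at E16.5, 2 at E17.5, 0 for the difference between stages, 5 with stage in wild type and 3 with stage in cKO, all higher. Scaling moved them most. Control-probe scaling gave 11, 1 and 14 lower for the 3 genotype contrasts, 8 lower for the difference, 12 higher with stage in wild type and 0 in cKO. With no scaling the counts were 1 lower over both stages, 0 at E16.5, 5 lower at E17.5, 11 higher with stage in wild type and 6 in cKO, and with all probes as the scaling base they were 1 lower over both stages, 0 at E16.5, 2 lower at E17.5 and 1 with stage in cKO. For all tested miRNAs no scaling gave 54, 17 and 46 lower and 6, 3 and 4 higher for genotype. With stage it gave 180 higher in wild type and 23 in cKO. The all-probe base gave 45, 18 and 32 lower and 6, 5 and 4 higher for genotype, and 2 higher and 5 lower with stage in cKO. Median scaling gave 1, 3 and 0 for the genotype contrasts and 1 with stage in cKO. Over all tested miRNAs it gave 129, 116 and 71 higher and 63, 59 and 53 lower for genotype. With stage in cKO it gave 41 higher and 78 lower. Quantile normalization gave 2 over both stages and 2 at E17.5 (1 higher and 1 lower each), 1 at E16.5, 1 lower for the difference and 6 with stage in cKO. Its totals for all tested miRNAs were 152 higher and 67 lower over both stages, 125 and 48 at E17.5, and 120 and 69 at E16.5. For the difference they were 11 and 13, and with stage in cKO 107 and 67. The normexp correction gave 7 over both stages, 2 at E16.5, 1 lower with stage in wild type and 2 lower in cKO. Over all tested miRNAs it gave 184 higher and 42 lower over both stages, and 107 and 40 at E16.5. With stage it gave 17 higher and 143 lower in wild type, and 37 and 141 in cKO. Averaging probes gave 4 at E17.5 and 5 with stage in cKO, and the scanner's total gene signal gave 1 over both stages and 0 at E17.5. Without the detection filter (13 members, since those at the floor on every array have no spread to fit) 8 were called at E16.5. Of all 386 miRNAs fitted in that way, 163 were higher and 60 lower at E16.5. Among miRNAs detected on all 8 arrays (4 members) 3 were called at E16.5, 1 with stage in wild type and 0 in cKO. The scanner's detection call (19 members) gave 2 over both stages, 0 at E17.5 and 1 with stage in cKO. Of the 448 miRNAs it kept, 159 were higher and 56 lower over both stages. At E17.5 the totals were 131 and 39, and with stage in cKO 47 and 66. Fits of a single stage gave 2 at E16.5 and 0 at E17.5. With the replicate number as a block, 1 was called at E17.5 in place of 2, and the other counts stayed within 1.5 times, although the numbers do not pair the samples. With that block 132 of all tested miRNAs were higher and 37 lower at E17.5. Leaving out each array in turn, where a lone array is assumed to vary like the other groups, gave 1 to 4 over both stages, 1 to 4 at E16.5, 0 to 2 at E17.5, 0 to 0 for the difference, 0 to 5 with stage in wild type and 0 to 3 in cKO, and moved the excess of detected members in cKO (2.5 per array) between 0.17 and 5.33. Leaving out both E16.5 replicate 2 arrays, chosen after seeing the data, gave 0 over both stages, 1 at E16.5, 0 at E17.5, 0 with stage in wild type and 1 in cKO. A lower floor (1st percentile), outlier spots kept and the deposited value table kept every count within 1.5 times, although miR-466h-3p lost its calls with outlier spots kept.

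Some named members changed sign on the log2 scale. Over both stages, miR-466f-3p and miR-466i-3p went to −0.054 and −0.0093 with scaling on all probes and to −0.13 and −0.044 with no scaling, which also took miR-466f-3p at E16.5 to −0.041. Control-probe scaling gave, over both stages, −0.32 (miR-466f-3p), −0.43 (miR-466h-3p), −0.23 (miR-466i-3p), −0.47 (miR-466q), −0.17 (miR-467a-3p), −0.50 (miR-467f), −0.44 (miR-669f-3p), −0.14 (miR-669n) and −0.41 (miR-669p-3p). At E16.5 it gave −0.038 (miR-466f-3p), −0.040 (miR-466h-3p), −0.089 (miR-466q) and −0.31 (miR-669f-3p). At E17.5 it gave −0.61 (miR-466f-3p), −0.14 (miR-466g), −0.57 (miR-466i-3p), −0.60 (miR-466i-5p), −0.30 (miR-467a-3p), −0.57 (miR-669f-3p) and −0.37 (miR-669n). The normexp correction turned the stage change of miR-466f-3p, miR-466q and miR-669p-3p in wild type to −0.11, −0.052 and −0.13, and of miR-466f-3p, miR-466h-3p and miR-466q in cKO to −0.090, −0.083 and −0.13. With outlier spots kept, miR-466h-3p had a standard error of 1.09 within a stage: its stage change in cKO was −1.40, its change with cKO at E16.5 was 2.09, and neither these nor its stage change in wild type was called. The cause of these changes was not tested.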
